A study of Mus musculus with 9 samples.

Results

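The comparison set 2 lines of knockdown mice against each other, DHX9-837 and DHX9-1271, whose short hairpin RNAs are both directed against the helicase gene Dhx9. Its members were the 3 arrays titled for DHX9-837 and the 3 titled for DHX9-1271, chosen by sample title alone, 6 of the 9 arrays of the series. The other 3 arrays, from control mice, did not enter the difference itself. They shared in the estimate of the spread and are given beside each result as a reference point. All mice were on a C57BL/6 background and carried rtTA, the doxycycline-dependent transcriptional activator, together with a hairpin transgene. The genotypes were DHX9.837/rtTA, DHX9.1271/rtTA and, for control, FLuc.1309/rtTA, whose hairpin is directed against firefly luciferase, a gene that mice do not have. Induction of every line, controls included, started at 4 weeks of age with water holding doxycycline at 1 mg/ml and sucrose at 5%, and lasted 14 days. RNA came from the large intestine as a whole and was measured on Affymetrix Mouse Gene 2.0 ST arrays. The labels do not give the promoter of rtTA, the cells in which the hairpins were expressed, or whether the replicates were separate animals. The p-values therefore cover the variation among these samples, which may be technical.

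Dhx9 encodes a helicase that unwinds RNA, DNA and their hybrids, and takes part in transcription, RNA processing and the handling of double-stranded RNA. A short hairpin RNA is processed into a small guide strand that directs the silencing complex to a matching messenger RNA. A guide can also act on other transcripts with partial matches, and each transgenic line has its own history, so a second hairpin against the same gene is a standard control in such work. The mucosa of the large intestine is a sheet of short-lived epithelial cells, mainly absorptive colonocytes and mucus-secreting goblet cells, over a wall of connective tissue, immune cells, vessels, nerves and muscle. In RNA from such a mixture, fewer cells of a type and less RNA per cell cannot be told apart.

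The values are log2 levels after RMA, and every difference below is the mean of DHX9-837 minus the mean of DHX9-1271 on that log2 scale. The median level of an array lay between 6.24 and 6.28. Pairs of arrays correlated across genes at 0.981 to 0.995 within a hairpin group and at 0.977 to 0.988 between the hairpins. The mean level of 16 genes of general epithelium was 10.40 to 10.55 over the 9 arrays, and that of 23 absorptive colonocyte genes was 10.96 to 11.19, so markers of the labelled tissue were abundant. Markers of the small intestine varied within the groups. The mean of 18 such genes was 7.44, 6.74 and 7.32 in the DHX9-1271 arrays, 8.32, 7.02 and 9.06 in the DHX9-837 arrays, and 6.93, 8.36 and 7.74 in control. In each group the same array lay between the other two for most genes with a range of over 2-fold within the group. This was replicate 3 of DHX9-1271 for 87.0% of 100 such genes, replicate 1 of DHX9-837 for 78.9% of 133 and replicate 3 of control for 82.7% of 139. Whether arrays of a group share RNA was not tested. Xist was between 10.91 and 11.06 in all 9 arrays, and its range in each group overlapped that of the others.

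Dhx9 itself did not differ detectably between the hairpins. Its log2 level was 8.27, 8.22 and 8.18 in the DHX9-1271 arrays and 8.19, 8.22 and 8.20 in the DHX9-837 arrays, against 9.21, 9.18 and 9.32 in control. The hairpin groups overlapped, and every array of both lay below every control array. The difference was -0.02 (SE 0.05, 95% interval -0.14 to 0.09, limma adjusted p = 0.908). Permuting the 6 arrays exactly, two-sided, gave p = 0.7, where 0.1 is the smallest that 3 against 3 allow. The values are those of messenger RNA, and DHX9 protein was not measured here.

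**Figure D1:**
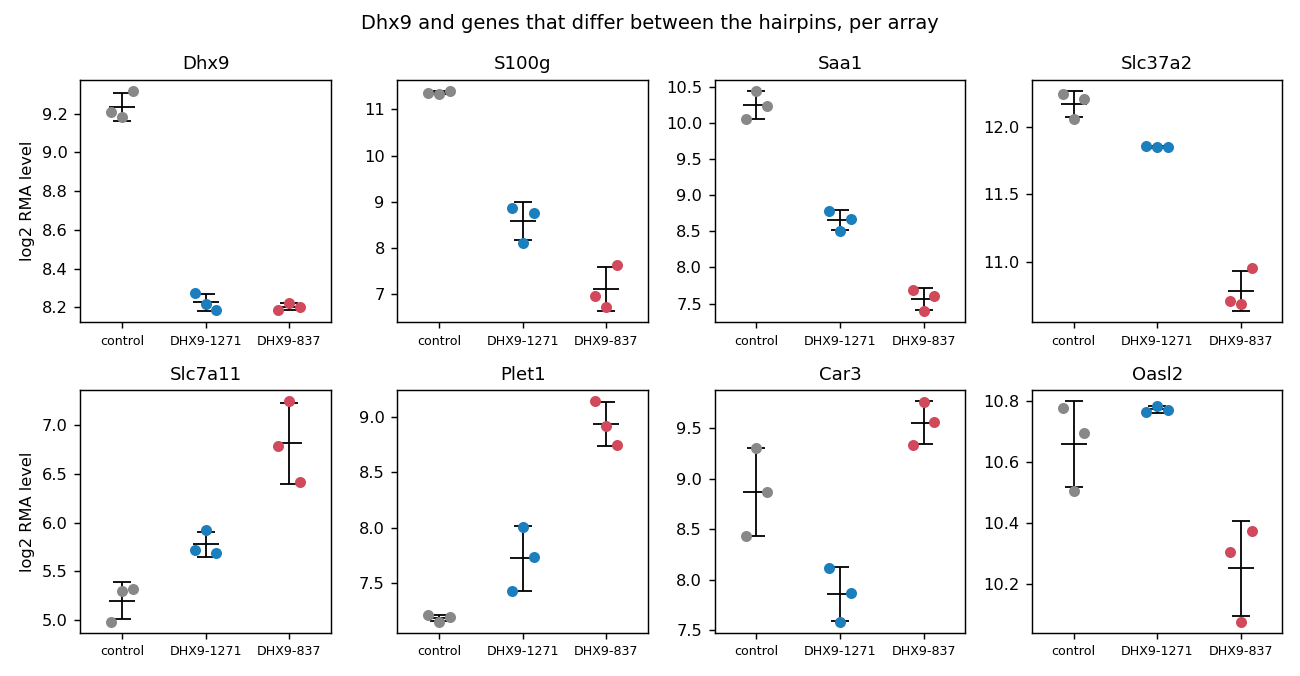
Log2 RMA level (vertical axis, a separate scale in each panel) of Dhx9 and 7 other genes in each array. Points are the 3 arrays of control, DHX9-1271 and DHX9-837, and black lines give the mean and SD. Dhx9 overlaps between the hairpin groups near 8.2, whereas the hairpin groups do not overlap for the other 7 genes.

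At this matched level of Dhx9, 320 of 16808 genes differed between the hairpins at an adjusted p under 0.05 in limma, which is 1.9% of the genes tested. Of these, 117 (0.696%) were higher in DHX9-837 and 203 (1.21%) were higher in DHX9-1271. Most differences were small. The median size was 0.43 for the genes higher in DHX9-837 and 0.40 for those higher in DHX9-1271, and 22 and 11 genes reached 2-fold. Antigen receptor segments, near-identical copies whose single values are uncertain, made up 20 of the 117 and 2 of the 203. Their share of all genes tested was not taken, so whether these counts are unusual is not known. For 94.6% of all genes tested the 95% interval of the difference lay within 1.5-fold. The 2 sets of 3 arrays did not overlap for any of the 320, against 21.9% of all genes tested whose arrays did not overlap. The number of calls fell without any single hairpin array, a step that also leaves 2 arrays in that group. It was 55, 71 and 28 without replicates 1, 2 and 3 of DHX9-1271, and 58, 121 and 134 without replicates 1, 2 and 3 of DHX9-837. Without replicate 3 of control it was 202. A fit without the array of each group that lies between the other two, added after the data were seen, called 3 genes. All 3 were among the 320, and this fit has 2 arrays per group.

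**Figure D2:**
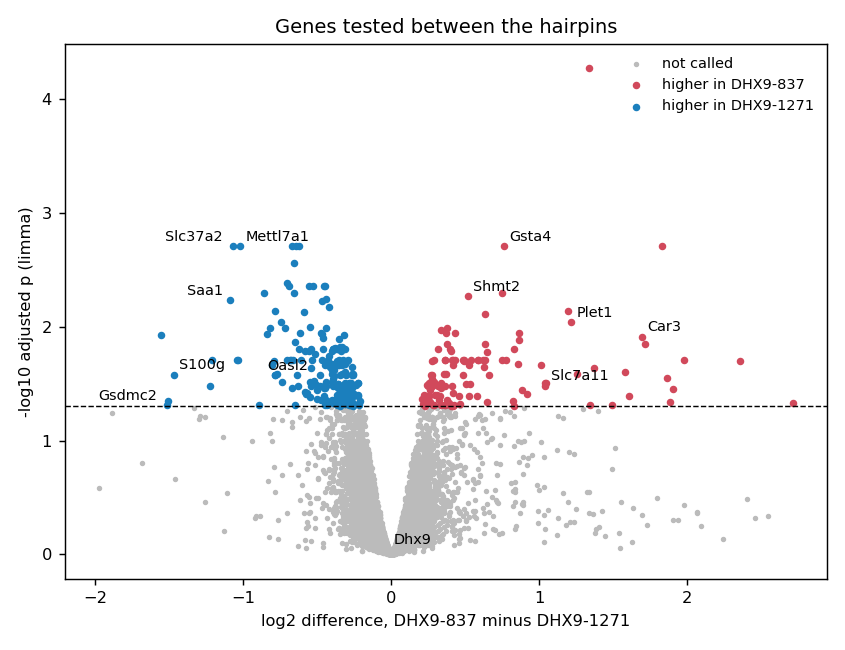
Log2 difference between DHX9-837 and DHX9-1271 (horizontal axis) against -log10 of the limma adjusted p (vertical axis) for the 16808 genes tested, with the threshold of 0.05 as a dashed line. Red points are the 117 genes higher in DHX9-837, blue points the 203 higher in DHX9-1271; Dhx9 lies at the foot of the plot. Unlabelled red points to the right of Car3 are antigen receptor segments and other genes that are counted but not named.

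The largest differences toward DHX9-1271 included S100g, the gasdermin genes Gsdmc2 and Gsdmc3, Saa1 and Slc37a2, each by over 1 on the log2 scale. S100g, which encodes the cytosolic calcium carrier calbindin-D9k, had log2 levels of 8.86, 8.11 and 8.76 in DHX9-1271 and of 6.96, 6.73 and 7.64 in DHX9-837, against 11.34 to 11.41 in control. The 3 groups were fully apart, with DHX9-837 lowest. The difference was -1.47 (SE 0.25, adjusted p = 0.0263), so that DHX9-1271 kept 14.45% and DHX9-837 kept 5.22% of the control signal. Gsdmc2, a gasdermin gene of the intestinal epithelium, was 9.53, 8.85 and 9.40 in DHX9-1271 and 7.79, 7.81 and 7.63 in DHX9-837 (control 9.96 to 11.35; difference -1.52, SE 0.31, adjusted p = 0.0487). Its neighbour in the family, Gsdmc3, differed by -1.22 (adjusted p = 0.0333). Both gasdermin genes were also lower in every array of both hairpins than in every control array.

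Saa1, an acute-phase gene that the gut epithelium expresses in contact with bacteria, was 8.78, 8.50 and 8.67 in DHX9-1271 and 7.69, 7.40 and 7.60 in DHX9-837, with control at 10.05 to 10.44. The 3 groups stood apart as steps, with a difference of -1.09 (SE 0.12, adjusted p = 0.00583). Slc37a2, a sugar-phosphate transporter gene of surface colonocytes, was 11.86, 11.85 and 11.85 in DHX9-1271 and 10.71, 10.69 and 10.95 in DHX9-837 (control 12.06 to 12.24). DHX9-1271 lay just under control, and DHX9-837 lay 1.07 lower still (SE 0.08, adjusted p = 0.00194). Mettl7a1, a methyltransferase-like gene, differed by -1.02 (SE 0.08, adjusted p = 0.00194), and Mal, which encodes a membrane protein of apical transport, by -0.86 (SE 0.09, adjusted p = 0.00503). For Mal and Mettl7a1 the DHX9-1271 arrays overlapped control, whereas all DHX9-837 arrays lay below. The remaining genes of the 12 largest in this direction were the fatty acid hydroxylase gene Cyp4f15 (-1.51), Ly6g6c (-1.21), the metalloprotease gene Adamts18 (-1.04), Slfn4 (-1.03) and the class I-like gene H2-T3 (-0.89). Cyp4f15 in DHX9-837 had a mean of 4.77, under the level filter of 5.28, so its size is uncertain.

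Ly6g6c and Slfn4 did not follow this order. Ly6g6c was 11.59, 10.96 and 11.40 in DHX9-1271, above all control arrays (10.35 to 10.50), and 9.97, 10.47 and 9.87 in DHX9-837, which overlapped control. Slfn4, a Schlafen gene of the interferon-induced family, was 9.76, 9.66 and 9.74 in DHX9-1271 and 8.57, 8.55 and 8.95 in DHX9-837, with control between them at 9.09 to 9.66. Among the 12, Saa1, Slc37a2, Mettl7a1 and Mal kept their calls whichever hairpin array was left out. The other 8 lost theirs in 4 to 6 of the 6 such fits, with adjusted p of up to 0.183 (Gsdmc2 without DHX9-1271 replicate 3) and with no change of sign.

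The largest differences toward DHX9-837 included Car3, Plet1 and Guca2b. Car3, which encodes a carbonic anhydrase abundant in fat, had log2 levels of 8.12, 7.58 and 7.87 in DHX9-1271 and of 9.34, 9.76 and 9.56 in DHX9-837. Control lay between them at 8.43, 9.31 and 8.87. The difference was 1.70 (SE 0.22, adjusted p = 0.0122), a 3.24-fold higher signal in DHX9-837. Plet1, which encodes a surface protein of epithelial progenitors, was 7.42, 8.01 and 7.73 in DHX9-1271 and 9.14, 8.92 and 8.75 in DHX9-837, with control at 7.15 to 7.21. Here the groups stood apart as rising steps, with a difference of 1.21 (SE 0.14, adjusted p = 0.00908).

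Guca2b, which encodes uroguanylin, a peptide that stimulates chloride and water secretion, was 9.97, 10.07 and 9.99 in DHX9-1271 and 10.96, 10.76 and 11.43 in DHX9-837 (control 9.51 to 10.12; difference 1.04, SE 0.18, adjusted p = 0.0312). DHX9-1271 overlapped control, and DHX9-837 lay above both. The arrays of DHX9-837 and of control, but not those of DHX9-1271, stood in the same order for Guca2b as for the mean of the small intestine genes, whose part in this difference was not tested. In both groups the middle array was the one that lay between the other 2 for most genes of wide range. Gsta4, a glutathione transferase gene for products of lipid peroxidation, was 7.73, 7.79 and 7.67 against 8.47, 8.54 and 8.46 (control 7.74 to 7.95; difference 0.76, SE 0.06, adjusted p = 0.00194). The other genes among the 12 largest were Retn (1.04), the cystine transporter gene Slc7a11 (1.04), the fatty acid carrier gene Fabp4 (0.88), the steroid reductase gene Akr1c18 (0.86), the phospholipid acyltransferase gene Lpcat4 (0.86), Ambp (0.86), Ms4a10 (0.83) and the decoy receptor gene Tnfrsf23 (0.82). Lpcat4 was one of those already above control in DHX9-1271, at 9.26 to 9.69 against 8.67 to 8.93, and reached 10.29 to 10.47 in DHX9-837. Ms4a10 took opposite sides, with 5.83, 5.76 and 6.17 in DHX9-1271, 6.43 to 6.44 in control and 6.55, 6.88 and 6.82 in DHX9-837. Of the 12, Gsta4 kept its call in all 6 fits without a hairpin array. Plet1, Car3 and Akr1c18 lost it without DHX9-1271 replicate 3 alone (adjusted p = 0.0535, 0.0697 and 0.0522), and the others lost it in 2 to 6 of the fits.

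The control arrays give a reference point for these differences. Among the 203 genes higher in DHX9-1271, the control mean lay beyond DHX9-1271 for 118, between the hairpins for 76 and beyond DHX9-837 for 9. Among the 117 genes higher in DHX9-837 it lay beyond DHX9-1271 for 77, between the hairpins for 36 and beyond DHX9-837 for 4. Every array of the 2 hairpins lay on opposite sides of every control array for 19 and 12 of the genes. The share of all genes tested with these positions was not taken, so whether the counts are unusual is not known.

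Genes whose mean over both hairpin groups differed from control were compared next, to see whether they reached the same level with each hairpin. In this balanced design that choice is orthogonal to the difference between the hairpins, but it also takes in genes that moved with 1 hairpin alone. Both tests also use the same estimate of each gene's spread, so genes of small spread are more readily called in both. The shares called between the hairpins are therefore not independent of the choice. It gave 1367 higher genes (8.13% of those tested) and 896 lower genes (5.33%). Between the hairpins, 85 of the 1367 differed (6.22%), and 76 of these lay farther from control in DHX9-837. Of the 896 lower genes, 122 differed (13.6%), and 117 lay farther from control in DHX9-837. In total 193 of 207, or 93.2%, were farther from control in DHX9-837, with genes that vary together and are not independent. Of the 207, 59 were also called against control for each hairpin alone, in the same direction, and 54 of these were farther from control in DHX9-837. The other 148, of which 139 were farther in DHX9-837, were not called for each hairpin alone. This share was 85.7% to 100% in the fits without 1 array. Of the 14545 genes not called against control, 113 differed between the hairpins (0.777%). The 207 fell to 42, 56 and 24 without replicates 1, 2 and 3 of DHX9-1271, to 48, 90 and 103 without those of DHX9-837 and to 122 without replicate 3 of control.

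**Figure D3:**
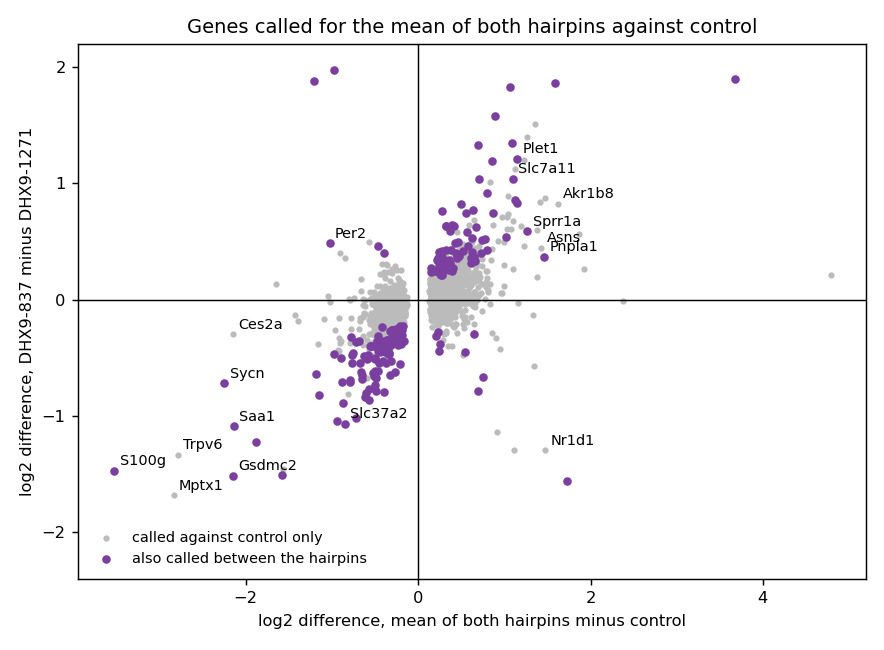
Genes called for the mean of both hairpins against control, with the log2 difference of the mean of both hairpins from control (horizontal axis) and the log2 difference of DHX9-837 from DHX9-1271 (vertical axis). Purple points, also called between the hairpins, lie mainly in the upper right and lower left, the quadrants in which DHX9-837 is farther from control (193 of 207).

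The genes farthest from control were described in the same way. Outside antigen receptor genes, the mean of both hairpins was at least 2-fold above control for 17 genes, with a median move from control of 0.88 in DHX9-1271 and 1.56 in DHX9-837. Of these, 7 were called between the hairpins, each of them farther from control in DHX9-837. For the 18 genes with that mean at least 2-fold below control, the medians were -1.27 and -2.29, and 8 of 9 called genes were farther in DHX9-837. The share called between the hairpins over all genes tested was 1.9%. The choice of these genes also takes in those that moved with 1 hairpin alone, and the calls are not independent of it. Sycn, a zymogen granule gene, was 8.23, 8.32 and 8.17 in DHX9-1271 and 7.40, 7.58 and 7.59 in DHX9-837 (control 9.96 to 10.27; difference -0.72, SE 0.09, adjusted p = 0.0103). Sprr1a, a cornified envelope gene induced in stressed epithelium, was 11.05 to 11.11 in DHX9-1271 and 11.48 to 11.86 in DHX9-837 (control 10.04 to 10.20; difference 0.59, adjusted p = 0.0196). The lipase-family gene Pnpla1 differed by 0.37 (adjusted p = 0.0262). Sycn was called in every fit without a hairpin array. Sprr1a lost its call in 4 and Pnpla1 in 5 of the 6 such fits (adjusted p of up to 0.0868 and 0.108).

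Other genes of this kind did not pass the threshold between the hairpins. Trpv6, the apical calcium channel gene, was 7.62, 7.96 and 7.85 in DHX9-1271 and 6.40, 6.77 and 6.26 in DHX9-837, groups that did not overlap (control 9.22 to 10.42; difference -1.33, 95% interval -1.96 to -0.71, adjusted p = 0.0512). The mucosal pentraxin gene Mptx1 had a difference of -1.68 with a wide interval of -2.84 to -0.52 (adjusted p = 0.158), and its DHX9-837 mean of 5.03 lay under the level filter. The carboxylesterase gene Ces2a was close between the hairpins, at 7.29 to 7.35 in DHX9-1271 and 6.89 to 7.20 in DHX9-837 (difference -0.30, interval -0.60 to 0.01, adjusted p = 0.359). For the rises, the differences were 0.83 for the aldo-keto reductase gene Akr1b8 (interval 0.42 to 1.24, adjusted p = 0.0606), 0.60 for the claudin gene Cldn8 (0.30 to 0.89, adjusted p = 0.0592) and 0.45 for Asns (0.16 to 0.73, adjusted p = 0.13). These intervals leave room for a difference, and the 6 genes are not shown to be equal.

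Per2 was the clock gene that passed the test. The repressor gene Nr1d1 did not, and had the reverse order of most responders, with 8.81, 10.18 and 9.43 in DHX9-1271, 8.10, 8.33 and 8.10 in DHX9-837 and 7.03 to 7.56 in control. The difference of -1.30 did not pass the threshold (interval -1.96 to -0.63, adjusted p = 0.0651). Per2, which encodes a repressor of the core clock, was 6.79, 6.73 and 6.75 in DHX9-1271 and 7.27, 7.27 and 7.20 in DHX9-837, with control at 7.86 to 8.16, so that DHX9-1271 was the farther from control. Its difference was 0.49 (SE 0.07, adjusted p = 0.0196), and the call was lost in 5 of the 6 fits without a hairpin array (adjusted p of up to 0.0926). Of 18 clock genes tested, 1 was called higher in DHX9-837 (background 0.696%) and 0 in DHX9-1271 (1.21%), with a median of 0.003. The time of day at which tissue was taken is not given in the sources used here, and its part in these values was not tested.

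Interferon-stimulated genes had negative differences throughout the list, and 2 of them passed the test. These genes respond to interferons and encode sensors and effectors against viral RNA. Of 33 tested, 2 were called, both higher in DHX9-1271 (background 1.21%), 0 were called in the other direction, and all 33 differences were negative (median -0.34, against a median over all genes of -0.004). The arrays did not overlap for 26 of the 33, against 12.6% of all genes tested. Oasl2, a member of the oligoadenylate synthetase family, was 10.76, 10.78 and 10.77 in DHX9-1271 and 10.31, 10.08 and 10.37 in DHX9-837 (control 10.50 to 10.78; difference -0.52, SE 0.09, adjusted p = 0.0298). Oas2, which makes the activator of RNase L, was 9.10, 9.37 and 9.31 against 8.62, 8.44 and 8.77 (control 8.80 to 9.27; difference -0.65, SE 0.13, adjusted p = 0.0486). In both genes DHX9-1271 overlapped control or stood at its upper edge, and DHX9-837 lay below control.

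Oas3 (-0.60, adjusted p = 0.0539), the helicase-like sensor gene Ddx60 (-0.71, adjusted p = 0.0544), Ifit1, which encodes a protein that binds foreign RNA ends (-0.62, adjusted p = 0.0625), and the nucleic acid sensor gene Zbp1 (-0.80, adjusted p = 0.0645) missed the threshold. Ddx60 was 9.80, 9.40 and 9.69 in DHX9-1271, 8.82, 8.76 and 9.19 in DHX9-837 and 8.99 to 9.37 in control. Ifit1 was 10.47, 10.09 and 10.41 in DHX9-1271, 9.76, 9.53 and 9.82 in DHX9-837 and 9.79 to 10.21 in control. In Ddx60 the hairpin groups thus lay to either side of the control values, with overlap in DHX9-837. The mean of the 33 genes was 8.94, 8.82 and 8.89 in DHX9-1271, 8.45, 8.34 and 8.67 in DHX9-837 and 8.70, 8.44 and 8.72 in control, so DHX9-837 overlapped control and DHX9-1271 lay above it. The calls of Oas2 and Oasl2 were lost in 6 and 5 of the 6 fits without a hairpin array (adjusted p of up to 0.182 and 0.125). The number of interferon genes called higher in DHX9-1271 was 5 without DHX9-837 replicate 3 and 0 without any other hairpin array, 2, 8 and 0 without control replicates 1, 2 and 3, and up to 13 under the other alternatives (array weights).

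Promoters are shown for 2 of these genes, neither of them called, because all differences of the list had 1 sign. They were taken from the members of smallest p that hold a match; the windows of the called genes Oasl2 and, in the related list below, H2-D1 hold none, and Oas2 was not among the genes with a window. The windows run from 250 bases before to 50 after the RefSeq start (GRCm38.p6), and capitals mark GAAANNGAA, the core of the interferon-stimulated response element, or its reverse complement. Overlapping matches form 1 run of capitals. The Ddx60 window is chr8:61927837-61928136, plus strand, with matches starting 53 and 19 bases before the gene's start. The Ifit1 window is chr19:34640639-34640938, plus strand, with 3 matches between 109 and 84 bases before it.
Ddx60: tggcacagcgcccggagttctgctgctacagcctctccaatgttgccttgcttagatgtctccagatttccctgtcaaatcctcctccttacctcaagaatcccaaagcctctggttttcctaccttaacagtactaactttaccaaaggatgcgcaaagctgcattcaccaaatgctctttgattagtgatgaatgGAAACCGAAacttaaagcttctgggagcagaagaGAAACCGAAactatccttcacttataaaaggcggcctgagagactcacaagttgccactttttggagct
Ifit1: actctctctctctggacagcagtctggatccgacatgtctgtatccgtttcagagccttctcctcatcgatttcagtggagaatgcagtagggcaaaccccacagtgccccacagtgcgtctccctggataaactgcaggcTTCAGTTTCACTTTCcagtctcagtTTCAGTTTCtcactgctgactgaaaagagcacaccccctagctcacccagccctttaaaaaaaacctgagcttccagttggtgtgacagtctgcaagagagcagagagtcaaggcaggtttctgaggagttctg
Such a match was found on either strand in 13 of 24 interferon genes with a window (54.2%), in 11 of 20 genes of interferon gamma response and class I presentation (55%) and in 8.64% of 12856 tested genes with a window. Over all 32851 windows the share was 8.56%. A match describes the letters and does not show binding.

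The related list of interferon gamma response and class I antigen presentation had 1 of 26 genes called, H2-D1 (background 1.21%), and 0 higher in DHX9-837. H2-D1, a classical class I gene, was 12.04, 11.96 and 11.91 in DHX9-1271 and 11.67, 11.67 and 11.56 in DHX9-837 (control 11.89 to 12.09; difference -0.34, SE 0.07, adjusted p = 0.0442). DHX9-837 lay below the other groups, which overlapped. The median of the list was -0.23, 23 of 26 differences were negative, and the arrays did not overlap for 14, against 12.6% of all genes with DHX9-1271 above. The call of H2-D1 was lost in all 6 fits without a hairpin array (adjusted p of up to 0.158). MHC class II genes, which mark antigen-presenting cells and respond to interferon gamma, had 0 of 10 called, 0 at an unadjusted p under 0.05 and a median of 0.04, with Cd74 (0.09, adjusted p = 0.621) and H2-Aa (0.17, adjusted p = 0.469) of smallest p.

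In the list of serine, one-carbon and integrated stress response genes, every called member was higher in DHX9-837. These genes make serine, glycine and asparagine, carry amino acids into the cell, and are targets of ATF4, the transcription factor of the integrated stress response. Of 19 tested, 5 were called higher in DHX9-837 (background 0.696%) and 0 in DHX9-1271, 16 differences were positive (median 0.25), and the arrays did not overlap for 11, against 9.37% of all genes. Shmt2, the mitochondrial serine hydroxymethyltransferase gene, was 8.67, 8.74 and 8.66 in DHX9-1271 and 9.11, 9.27 and 9.23 in DHX9-837 (control 8.16 to 8.22; difference 0.52, SE 0.05, adjusted p = 0.00535). Slc7a11, the cystine and glutamate exchanger gene, was 5.72, 5.92 and 5.69 against 6.78, 7.25 and 6.42 (control 4.98 to 5.32; difference 1.04, SE 0.19, adjusted p = 0.0329). The control values of Slc7a11 lay near or under the level filter. Both genes formed steps, with control lowest and DHX9-837 highest.

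Slc1a4, a transporter gene for serine and other neutral amino acids, was 8.10, 8.12 and 8.12 in DHX9-1271 and 8.52, 8.77 and 8.66 in DHX9-837 (control 7.23 to 7.50; difference 0.54, SE 0.08, adjusted p = 0.0196). Slc7a5, the light chain of the large neutral amino acid transporter, differed by 0.43 (adjusted p = 0.0196), and Slc3a2, the heavy chain that it and Slc7a11 share, by 0.34 (adjusted p = 0.0106). Psat1, of serine synthesis, had a difference of 0.46 (adjusted p = 0.0501), and Mthfd2, of mitochondrial folate metabolism, of 0.50 (adjusted p = 0.085). The list mean was 7.13 to 7.21 in control, 7.44 to 7.50 in DHX9-1271 and 7.70 to 7.80 in DHX9-837, with no overlap between any of the groups. Shmt2 was called in all 6 fits without a hairpin array. Slc3a2 lost its call in 2, Slc7a5 in 4, and Slc1a4 and Slc7a11 in 5 of them, with adjusted p of up to 0.143.

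The promoters of Slc7a11 and Slc1a4, the called members with a match, hold the amino acid response element core TGATGNAA, in capitals on either strand, a motif added after the data were seen. The Slc7a11 window belongs to a RefSeq start at chr3:50443564-50443863, minus strand, with matches starting 66 and 47 bases before it. The Slc1a4 window is chr11:20332664-20332963, minus strand, with 1 match starting 4 bases before the start.
Slc7a11: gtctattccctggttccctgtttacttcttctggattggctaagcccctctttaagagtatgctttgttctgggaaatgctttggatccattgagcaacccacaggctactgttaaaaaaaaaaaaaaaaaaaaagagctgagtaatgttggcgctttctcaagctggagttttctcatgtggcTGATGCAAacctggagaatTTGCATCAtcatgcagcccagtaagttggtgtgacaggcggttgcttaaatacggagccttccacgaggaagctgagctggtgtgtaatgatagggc
Slc1a4: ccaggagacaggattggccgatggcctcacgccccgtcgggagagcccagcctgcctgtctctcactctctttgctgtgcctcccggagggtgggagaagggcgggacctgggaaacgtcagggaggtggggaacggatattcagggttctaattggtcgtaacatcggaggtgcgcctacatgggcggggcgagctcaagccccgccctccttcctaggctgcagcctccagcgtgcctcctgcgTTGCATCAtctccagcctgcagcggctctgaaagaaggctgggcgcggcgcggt
The motif was present for 6 of 18 genes of the list with a window (33.3%), Asns among them, and for 2.99% of tested genes with a window. Over all windows the share was 3.97%.

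**Figure D4:**
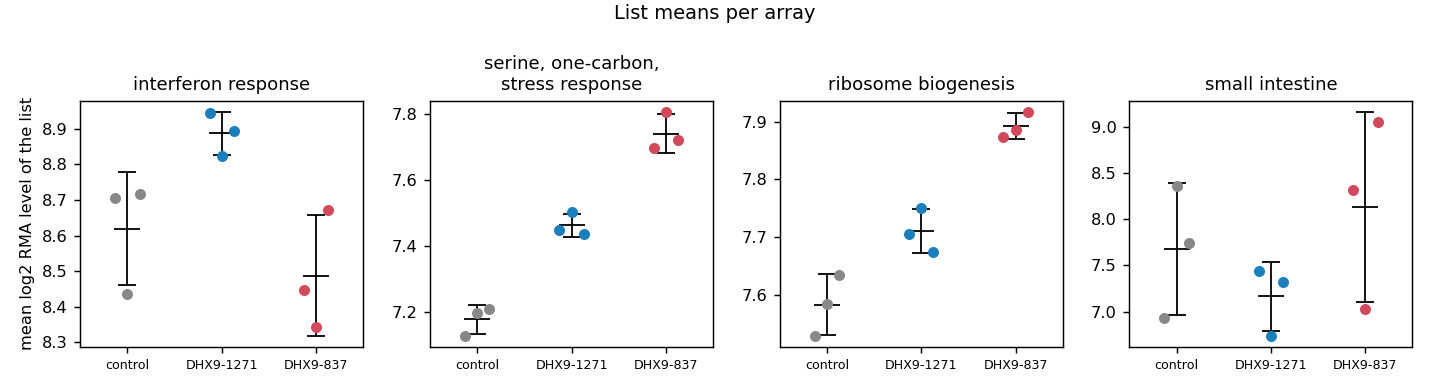
Mean log2 RMA level (vertical axis, a separate scale in each panel) over the tested members of 4 gene lists in each array. Points are arrays and black lines the mean and SD of the 3 arrays of a group. The stress response and ribosome lists form separate steps from control to DHX9-837, interferon genes are highest in DHX9-1271, and small intestine genes overlap between all groups.

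The lists of ribosome biogenesis and heat shock chaperones had calls toward DHX9-837. Ribosome biogenesis, the making of ribosomes in the nucleolus, had 4 of 25 genes called in that direction (background 0.696%) and 0 in the other, with 23 positive differences (median 0.18). The arrays of 18 of the 25 did not overlap, against 9.37% of all genes with DHX9-837 above. Nop2, a ribosomal RNA methyltransferase gene, was 8.13 to 8.19 in DHX9-1271 and 8.49 to 8.59 in DHX9-837 (control mean 7.91; difference 0.40, SE 0.06, adjusted p = 0.0155). The box C/D core protein gene Nop56 (0.41), the nucleophosmin gene Npm1 (0.41) and Mybbp1a (0.28) were the other called members. The list mean was 7.53 to 7.64 in control, 7.67 to 7.75 in DHX9-1271 and 7.87 to 7.92 in DHX9-837. Heat shock chaperones had 2 of 14 called, against the same background, the constitutive Hsp70 gene Hspa8 (0.27, adjusted p = 0.029) and Chordc1 (0.39, adjusted p = 0.0469), with 12 of 14 non-overlapping. Their list mean was 8.40 to 8.43 in DHX9-1271, 8.62 to 8.73 in DHX9-837 and 8.49 to 8.62 in control, so here DHX9-1271 was below control and DHX9-837 at or above its upper edge. The inducible Hsp70 gene Hspa1b was 7.35 to 7.47 in DHX9-1271, 8.02 to 8.35 in DHX9-837 and 7.83 to 8.49 in control (difference 0.73, adjusted p = 0.0633). All 6 called genes of these lists lost their calls in 4 or more of the 6 fits without a hairpin array (adjusted p of up to 0.143).

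Other stress lists had 0 to 2 calls each (background 0.696% higher in DHX9-837 and 1.21% higher in DHX9-1271). Among p53 targets, the cyclin G1 gene Ccng1 (0.49, adjusted p = 0.02) and the death receptor gene Tnfrsf10b (0.36, adjusted p = 0.0481) were higher in DHX9-837 of 16 tested (median 0.11). NRF2 and redox genes had Slc7a11 as the 1 called of 13, with all 13 differences positive (median 0.17). Fatty acid synthesis had 0 of 11 called, 7 at an unadjusted p under 0.05 and all 11 positive (median 0.25). Thrsp, a regulator of lipogenesis, was 6.89, 6.13 and 6.68 in DHX9-1271 and 7.59, 7.67 and 8.32 in DHX9-837 (control 7.12 to 7.91; difference 1.29, adjusted p = 0.0523), and the desaturase gene Scd1 had a difference of 0.80 (adjusted p = 0.0555). In control and in DHX9-1271 the arrays stood in the same order for Thrsp, Scd1 and the mean of the adipocyte list. The mean of the small intestine genes had that order too in these groups. Their middle array was the one that lay between the other 2 for most genes of wide range. In DHX9-837 the order was not shared. Thrsp and Scd1 rose from replicate 1 to replicate 3, whereas replicate 2 had the highest adipocyte mean and the lowest small intestine mean. The adipocyte mean was 7.18 to 7.26 in DHX9-1271 and 7.54 to 7.67 in DHX9-837, and its part in these values was not tested. Among immediate early genes, the AP-1 subunit gene Fosl1 was higher in DHX9-837 (0.64, adjusted p = 0.0165) and the epithelial differentiation factor gene Klf4 lower (-0.32, adjusted p = 0.041), of 21 tested (median 0.07). Endoplasmic reticulum chaperones had 0 of 19 called and 4 at an unadjusted p under 0.05, with Hspa5 at 0.15 (adjusted p = 0.142) and Hyou1 at 0.22 (adjusted p = 0.128; list median 0.04). The cell cycle list had 0 of 33 called and 4 at an unadjusted p under 0.05 (median 0.05), with Cdc6 at 0.28 (adjusted p = 0.076) and Rrm2 at 0.27 (adjusted p = 0.18). Stem cell and Wnt target genes had 0 of 19 called and 4 at an unadjusted p under 0.05 (median 0.04), with Myc at 0.43 (adjusted p = 0.0611) and Cd44 at 0.20 (adjusted p = 0.18). The 4 called genes named here lost their calls in 4 to 6 of the fits without a hairpin array (adjusted p of up to 0.17).

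**Figure D5:**
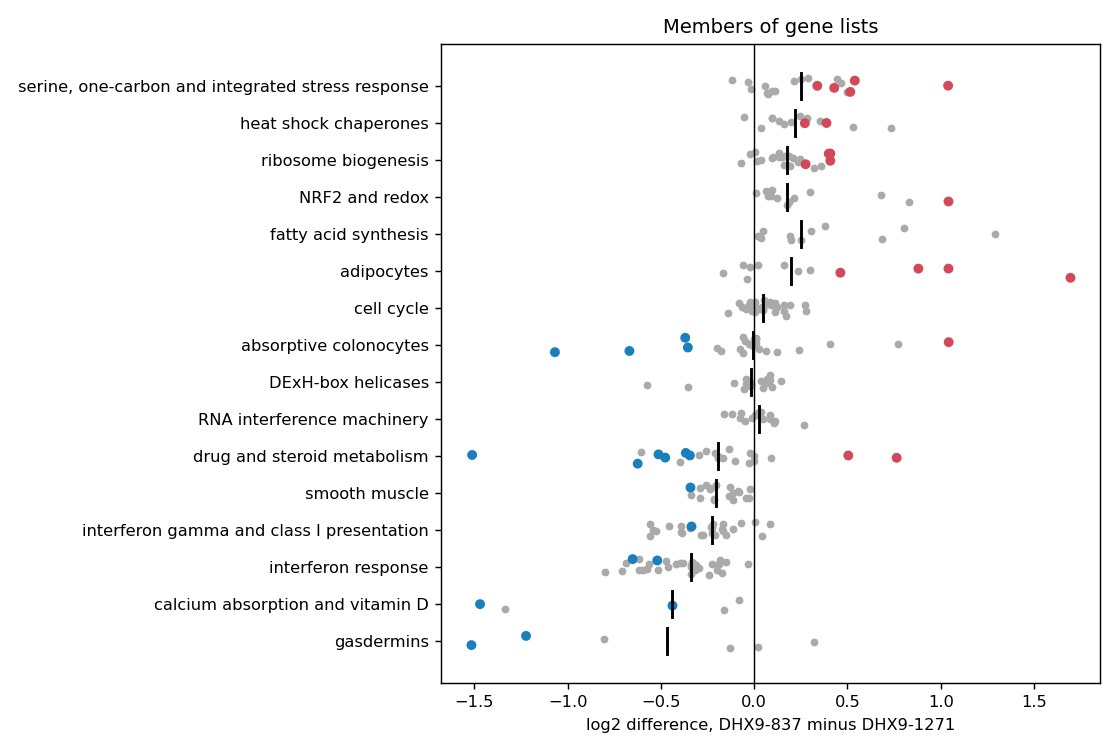
Log2 difference of DHX9-837 from DHX9-1271 (horizontal axis) for each tested member of 16 gene lists. Coloured points were called (red, higher in DHX9-837; blue, higher in DHX9-1271), grey points were not, black bars are list medians, and points are spread vertically at random. All 33 interferon response genes lie left of 0 and 2 of them are called.

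Among lists of epithelial transport and metabolism, most calls were toward DHX9-1271 (background 1.21%, and 0.696% toward DHX9-837). Calcium absorption had S100g and the sodium-calcium exchanger gene Slc8a1 called of 5 tested, both higher in DHX9-1271, and all 5 differences were negative (median -0.44). Slc8a1 was 7.76, 7.79 and 7.79 in DHX9-1271 and 7.38, 7.28 and 7.35 in DHX9-837 (control 7.99 to 8.07; difference -0.44, SE 0.05, adjusted p = 0.00564), and was called in all 6 fits without a hairpin array. S100g lost its call in 4 of them (adjusted p of up to 0.124). The list mean was 10.30 to 10.57 in control, 9.38 to 9.51 in DHX9-1271 and 8.70 to 8.83 in DHX9-837. Gasdermins had Gsdmc2 and Gsdmc3 called of 6 (median -0.47). S100g, Gsdmc2 and Gsdmc3 are the genes already named above among the largest differences. These lists, like the others, were chosen with earlier results of these data known, so their calls are not separate evidence.

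Drug and steroid metabolism had 6 of 23 genes called higher in DHX9-1271 (background 1.21%) and 2 higher in DHX9-837 (0.696%), with a median of -0.20. The sulfotransferase genes Sult1a1 (-0.62, adjusted p = 0.0155) and Sult1b1 (-0.34, adjusted p = 0.0149) and the carboxylesterase gene Ces2e (-0.48, adjusted p = 0.0112) were lower in DHX9-837, and Gsta4 was higher. Sult1a1 was 10.61, 10.75 and 10.69 in DHX9-1271, 10.05, 10.10 and 10.03 in DHX9-837 and 10.82 to 11.18 in control, again as falling steps. Absorptive colonocytes had 4 of 23 genes higher in DHX9-1271 and 1, Guca2b, higher in DHX9-837, with a median of -0.006, so the list did not move as a whole. Besides Slc37a2, the chloride-bicarbonate exchanger gene Slc26a3 (-0.36, adjusted p = 0.0196) and the sodium-hydrogen exchanger gene Slc9a2 (-0.37, adjusted p = 0.0196) were lower in DHX9-837. Pck1, of gluconeogenesis, was 8.70, 8.53 and 8.65 in DHX9-1271, 7.81 ± 0.17 in DHX9-837 (SD, n = 3) and 9.28 to 9.53 in control (difference -0.82, SE 0.10, adjusted p = 0.0103), the 1 called of 9 genes of sugar absorption and gluconeogenesis (median 0.01). In NF-kB and epithelial inflammation, Saa1 and Pigr, the receptor that carries immunoglobulin A to the lumen (-0.22, adjusted p = 0.0312), were the 2 called of 19 (median 0.02). Ces2e and Pck1 lost their calls without DHX9-1271 replicate 3 alone (adjusted p = 0.0602 and 0.0615), and Sult1a1, Sult1b1, Slc26a3, Slc9a2 and Pigr in 4 to 6 of the fits (adjusted p of up to 0.137).

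Part of the adipocyte markers, which bear on fat attached to the gut wall, were higher in DHX9-837. Of 12 tested adipocyte genes, 4 were called in that direction (background 0.696%), Car3, Retn, Fabp4 and Lpl, and 0 in the other. The median was 0.20, and 4 of the 12 differences were negative. Of those 4, the lipase gene Lipe (-0.17, adjusted p = 0.282) had arrays that did not overlap, whereas the values were -0.02 for the regulator gene Pparg, -0.04 for Plin4 and -0.06 for the brown fat gene Ucp1. Retn, which encodes the hormone resistin, was 7.01, 6.73 and 7.09 in DHX9-1271, 7.80, 8.09 and 8.07 in DHX9-837 and 7.22 to 7.98 in control. Fabp4 was 8.13, 7.83 and 8.13 in DHX9-1271, 8.76, 9.04 and 8.93 in DHX9-837 and 7.83 to 8.50 in control (difference 0.88, adjusted p = 0.0362). The lipoprotein lipase gene Lpl differed by 0.46 (adjusted p = 0.048). The adiponectin gene Adipoq and the leptin gene Lep lay under the level filter. Adipoq was 4.16 to 4.82 in DHX9-1271 and 5.30 to 6.08 in DHX9-837, and Lep was 4.38 to 4.89 and 5.25 to 5.55. The list mean was 7.18 to 7.26 in DHX9-1271, 7.54 to 7.67 in DHX9-837 and 7.28 to 7.48 in control. The lipid droplet gene Plin1 was 6.13 to 6.22 and 6.34 to 6.45. The part of attached fat in these values was not tested. Car3 lost its call without DHX9-1271 replicate 3, and Retn, Fabp4 and Lpl in all 6 fits without a hairpin array (adjusted p of up to 0.161).

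Other lists mark cells of the gut wall. Smooth muscle genes were all negative, 19 of 19 (median -0.21), with 12 not overlapping between the hairpins (12.6% of all genes) and 1 called (background 1.21%), the filament gene Synm. Synm was 8.25, 8.42 and 8.28 in DHX9-1271, 8.01, 8.06 and 7.85 in DHX9-837 and 8.14 to 8.24 in control (difference -0.34, SE 0.07, adjusted p = 0.0492), and lost its call in all 6 fits without a hairpin array (adjusted p of up to 0.155). The smooth muscle mean was 9.86 to 9.98 in DHX9-1271, 9.64 to 9.81 in DHX9-837 and 9.78 to 9.93 in control. Among 13 genes of enteric neurons, glia and pacemaker cells, the neuropeptide gene Vip was higher in DHX9-1271 (-0.44, adjusted p = 0.0329; list median -0.06). Among 17 enteroendocrine genes, the somatostatin gene Sst was higher in DHX9-837 (0.64, adjusted p = 0.0458; list median 0.02). General epithelium had the keratin gene Krt18 called of 16, higher in DHX9-837 (0.34, adjusted p = 0.0312; list median -0.004). Of 7 pancreas genes Sycn was called, with a list median of 0.06, and the other 6 were not. Vip, Sst and Krt18 lost their calls in 5 or 6 of the fits without a hairpin array (adjusted p of up to 0.161).

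No gene was called by limma in the lists of the remaining cell types, with 0 to 6 members of each at an unadjusted p under 0.05. B and plasma cell genes had 0 of 18 called (median 0.08), with Igha at 0.27 (adjusted p = 0.053) and Jchain at 0.36 (adjusted p = 0.0773). Their list mean was 7.74 to 8.20 in DHX9-1271, 7.86 to 8.14 in DHX9-837 and 7.56 to 7.65 in control. Beside them stand the 20 antigen receptor segments called higher in DHX9-837, whose share of the segments tested was not taken. T and NK cells had 0 of 19 (median -0.05), with 17 differences negative and 2 positive. Itgae was at -0.63 (adjusted p = 0.199), and Cd4, 1 of the 2 positive members, at 0.41 (adjusted p = 0.163). Macrophages and granulocytes had 0 of 15 (median 0.12), with 14 of the 15 differences positive. Csf1r was at 0.21 (adjusted p = 0.102), and Cd14, the 1 negative member, at -0.36 (adjusted p = 0.0609). Mast cells and eosinophils had 0 of 7 (median -0.57), with the mast cell protease gene Mcpt2 at 10.51, 9.65 and 10.45 in DHX9-1271 and 9.03, 8.95 and 9.24 in DHX9-837, and at 6.36 to 10.46 in control (difference -1.13, SE 0.85, adjusted p = 0.625). Fibroblasts had 0 of 19 (median -0.10), endothelium 0 of 18 (-0.01), goblet cells 0 of 20 (-0.05), tuft cells 0 of 12 (-0.16), small intestine 0 of 18 (0.75) and erythroid genes 0 of 2. Differences were negative for 11 of 12 tuft cell, 13 of 19 fibroblast, 14 of 20 goblet cell and 10 of 18 endothelial genes. Every DHX9-1271 array was higher for 5, 8, 7 and 5 of these genes in turn, against 12.6% of all genes tested. Every DHX9-837 array was higher for 0, 2, 1 and 0 of them. For the small intestine, 17 of the 18 differences were positive and 6 had an unadjusted p under 0.05. The arrays overlapped for 13 of the 18, and 5, Ada among them (0.87, adjusted p = 0.153), had every DHX9-837 array higher. Over all genes tested, 9.37% had arrays apart in that direction.

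Metabolic and regulatory lists with no call were PPAR and fatty acid oxidation, 0 of 19 (median -0.01, 8 at an unadjusted p under 0.05), cholesterol synthesis, 0 of 19 (-0.01, 2), sodium and water transport, 0 of 14 (-0.007, 5), glucocorticoid targets, 0 of 11 (-0.07, 3), and posterior Hox genes, 0 of 8 (-0.08, 2). Over the 44 lists, 48 distinct genes were called. The share called over all genes tested was 1.9%, and the share of distinct list genes was not taken. The lists were chosen with earlier results of these data known, so the 48 are not a result about the lists as a whole. The number of list genes called was 6 to 24 in fits without a hairpin array, with the lowest without DHX9-1271 replicate 3, and 26 without control replicate 3.

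Genes of Dhx9's own family and of the pathway that processes hairpins did not differ past the threshold. Of 18 DExH-box helicases tested, Dhx9 among them, 0 were called by limma and 3 had an unadjusted p under 0.05 (median -0.02). The RNA sensor regulator gene Dhx58, also an interferon-induced gene, was 7.90, 7.72 and 7.80 in DHX9-1271 and 7.23 ± 0.29 in DHX9-837 (SD, n = 3; difference -0.58, adjusted p = 0.068). The helicase-family gene Dqx1 had a difference of -0.36 (adjusted p = 0.0512). Of 15 genes of the RNA interference machinery, which loads and carries out silencing by small RNAs, 0 were called and 1 had an unadjusted p under 0.05 (median 0.03), with differences from -0.16 to 0.27. The silencing scaffold gene Tnrc6b was 8.99, 8.94 and 8.95 in DHX9-1271 and 8.73, 8.76 and 8.89 in DHX9-837 (difference -0.16, adjusted p = 0.181).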

How the data were processed

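Large intestine RNA from 9 samples, 3 per group, was measured on arrays. The deposited values are log2 levels from RMA, and the submitters' processing notes name oligo 1.30.0 and R 3.1.1 for the authors' step. No source used here gives the genome build or how probes were grouped into probe sets. RMA equalises the arrays' distributions, so a shift of most transcripts one way would not be seen, and 45.3% of tested genes have identical values in 2 or more arrays.

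Of 24973 probe sets, 24015 had 1 symbol in the platform's table, 0 had several and 958 were not listed. For each of 24011 genes the brightest probe set was used, and 7203 with a mean under the 30th percentile (5.28) were left out. limma 3.58.1 in R 4.3.3 fitted group means over all 9 arrays, with the contrast DHX9-837 minus DHX9-1271, empirical Bayes moderation (6 residual and 2.84 prior degrees of freedom), and Benjamini-Hochberg adjustment over 16808 genes. Genes at an adjusted p under 0.05 are called. The method was tested on simulated data.

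Named genes were the 12 largest called differences each way with non-overlapping arrays, leaving out predicted genes, small RNAs, antigen receptor segments and sensory receptors, up to 4 called members of each list (2 of smallest p where none was called), and the 6 largest rises and falls of the mean of both hairpins. Other members given as values were chosen after their values were seen. The members and the 44 gene lists (780 genes, 41 with no probe set named here) were chosen with earlier results of these data known. Promoters are from RefSeq. Alternatives covered the level filter, probe sets, centring, cyclic loess, trend, array weights, the 6 hairpin arrays alone, a replicate block, a minimum of 1.5-fold, and fits without single arrays or tied genes. There is no read depth for arrays, and their number limits the precision. Figures used matplotlib 3.10.9 in Python 3.11.15.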

Additional observations from a re-analysis of the deposited data

Results flagged for a closer look

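Genes named in the text are listed where every array of 1 hairpin lay above, and every array of the other below, all control arrays. The hairpins' differences from the shared control then had opposite signs. The values given first are the differences between the hairpins. Against control, limma passed 1 side or neither in each of the 4 genes, so opposite effects are not shown. Car3 differed by 1.70 and Ms4a10 by 0.83, with DHX9-837 above and DHX9-1271 below control. Car3 was -1.01 from control in DHX9-1271 (adjusted p = 0.0399) and 0.69 in DHX9-837 (0.0687), and Ms4a10 was -0.51 (0.0428) and 0.32 (0.0979). Slfn4 differed by -1.03 and Synm by -0.34, with DHX9-837 below and DHX9-1271 above control. Slfn4 was 0.26 from control in DHX9-1271 (adjusted p = 0.395) and -0.78 in DHX9-837 (0.0122), and Synm was 0.13 (0.343) and -0.22 (0.0724). The control arrays of Car3 spanned 8.43 to 9.31, and its highest control array was just under its lowest DHX9-837 array at 9.34.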

How the results depend on the processing

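Whether the replicate numbers pair the samples is not known. Deviations of same-numbered arrays of the hairpins correlated at -0.01, 0.26 and 0.08, and those of differently numbered arrays at -0.22 to 0.19. So few arrays per group cannot decide it. With the replicate block, 168 genes were called, 62 higher in DHX9-837 and 106 in DHX9-1271, 120 of the genes called for the mean of both hairpins, 35 list genes and 16 of the 24 largest differences. The same 5 counts, for all calls, DHX9-837, DHX9-1271, genes called for that mean and list genes, were 140, 53, 87, 97 and 23 with no level filter (15 of 24), 493, 173, 320, 328 and 76 with the filter at the median gene, 554, 197, 357, 371 and 85 with trend and robust moderation, 719, 282, 437, 382 and 111 with array weights, and 88, 44, 44, 62 and 19 with a 1.5-fold limit. Cyclic loess gave 398, 180, 218, 270 and 63, all probe sets 305, 109, 196, 198 and 45, the 6 hairpin arrays alone 272, 89, 183 and 50 list genes, and centred arrays 252, 81, 171, 165 and 42. Leaving out genes with identical values, added after the data were seen, gave 368 calls (65 list genes). Without the array of each group between the other two, also added, the counts were 3, 3, 0, 2 and 0, and 1 of the 24 (Ms4a10, adjusted p = 0.0352); limma gave 1459 genes at an unadjusted p under 0.05 there, from 2 arrays per group. Leaving out 1 array gave 28 to 360 calls, 9 to 125 and 19 to 237 by direction, 24 to 238 of the genes called for that mean, 6 to 69 list genes and 6 to 22 of the 24, and a Dhx9 difference of -0.04 to 0.002. None of these alternatives turned the sign of a called named gene. The share farther from control in DHX9-837 was 85.7% to 100% over those that fit control too. The causes of these changes were not tested. No depth applies to arrays, and genes near the level filter have uncertain sizes.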
